A study of Xenopus laevis with 3 samples.

Results

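The inflammatory signal and remodelling genes described here are socs3, cxcl8, acod1lb, mmp13 and epx, measured in whole heads of Xenopus laevis tadpoles. All probe sets whose single platform symbol is 1 of these 5 names were taken, whichever subgenome copy (.L for the long, .S for the short chromosomes) they report. This gave 8 of the 15505 probe sets with a single symbol, and 6 of 11303 genes: socs3.L, socs3.S, cxcl8.L, acod1lb.L with 3 probe sets, mmp13.S and epx.L. The genes were chosen by their measured differences on these same arrays, so each value below is a description and none is a test.

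Embryos from in vitro fertilisation, cultured at 22 °C, received a morpholino, an antisense oligomer that blocks a chosen mRNA, at 10 ng per cell in every cell of the cleaving embryo. The groups were CoMO, xMLTK-MO and xSox6-MO, the latter pair labelled as depleted of the stress-activated kinase MLTK (map3k20) and of the transcription factor Sox6, and CoMO was used here as the control although the labels do not spell the name out. Heads were taken at 72 hours, about stage 41, when the head skeleton is forming. Each group had 1 array, and neither the clutch nor the number of heads per sample is given in the sources used here, so the spread between samples is unknown and no p-value is given.

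Tissue injury and infection set off a chain of signals that these genes sample at several points. Cytokines of the interleukin 6 family activate JAK kinases and STAT transcription factors, which induce SOCS3, a protein that then shuts the same receptors down. Chemokines such as CXCL8 draw neutrophils out of the blood, activated macrophages make the antimicrobial metabolite itaconate through ACOD1, granulocytes carry peroxidases such as EPX, and collagenases such as MMP13 cut the collagen of the surrounding matrix. These roles are known from mammals, and collagenases have also been studied in the tail and gut of metamorphosing frogs.

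Values are linear probe-set intensities, relative to the other probe sets of their array. The median intensity was 92.7, 91.1 and 89.8 on the CoMO, xMLTK-MO and xSox6-MO arrays, and 71.3% to 73.7% of probe sets were brighter than the brightest of 23 negative controls. That control read 23.3, 26.2 and 21.0 on the 3 arrays, and a value at or below it is called not above the controls. The second brightest read 13.4, 14.5 and 14.2, so this cutoff was set by the brightest control alone. Knockdown could not be checked, since the arrays measure RNA and not protein. The RNA of the targeted genes could not be read either, as no annotated probe set carries the symbol of either gene. Markers of head tissues were above the controls, with 14 of 14 neuronal, 9 of 9 lens and 9 of 9 photoreceptor gene copies on each array, and with 8 of 8 cartilage copies on CoMO and 7 on each knockdown array. The RNA is from bulk tissue, so a gain in cells of a type and a gain of RNA per cell cannot be told apart.

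Both copies of socs3 were highest on the xMLTK-MO array, and both were also above CoMO, by less, on the xSox6-MO array. The probe set of socs3.L, the feedback inhibitor of JAK-STAT signalling, had intensities of 36.3 on CoMO, 120.3 on xMLTK-MO and 59.7 on xSox6-MO. That of socs3.S had 47.7, 152 and 63.1. The 2 copies thus kept the same order of arrays, CoMO lowest and xMLTK-MO highest. For socs3.L the log2 difference from CoMO was 1.73 in xMLTK-MO (3.31-fold higher) and 0.72 in xSox6-MO (1.64-fold higher). For socs3.S it was 1.67 (3.19-fold) and 0.41 (1.32-fold). Set directly against each other, xMLTK-MO exceeded xSox6-MO by 2.02-fold for socs3.L and 2.41-fold for socs3.S, the widest separation of the knockdown arrays among the 6 genes. Neither copy reached the level filter used for counting, a mean log2 intensity of 6.51 over the 3 arrays.

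A related copy lay outside the chosen symbols. The RefSeq gene table lists socs3.S as a synonym of socs3l.S, so the assignment of probe sets between these names is uncertain. The bright probe set of socs3l.S read 142 on CoMO, 398 on xMLTK-MO and 338 on xSox6-MO, log2 differences of 1.49 and 1.25 from CoMO, and its other 2 probe sets were not above the controls on any array. On that probe set the knockdown arrays lay 0.24 log2 apart, less than on socs3.L or socs3.S. Among other SOCS family members, socs1.L, which restrains interferon and cytokine receptors, read 34.7, 58.7 and 39.3 (0.76 and 0.18 from CoMO). The growth hormone pathway inhibitor socs2.S was lower on both knockdown arrays, at 55.8, 45.6 and 38.9 (-0.29 and -0.52), and socs6.L lay within 0.10 log2 of CoMO on both. The SOCS genes therefore did not all move with socs3 on these arrays.

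The chemokine gene cxcl8.L was higher on both knockdown arrays, and here xSox6-MO was the highest. Its intensities were 54.7 on CoMO, 164 on xMLTK-MO and 217 on xSox6-MO. The log2 differences from CoMO were 1.58 and 1.99 (3.97-fold), and xMLTK-MO was 1.32-fold below xSox6-MO. The order of the knockdown arrays was therefore opposite to that of socs3. The receptor through which CXCL8 acts on neutrophils, represented by cxcr1.S, read 7.18, 7.77 and 8.97 and was not above the controls on any array. Of the other chemokine system genes, the copies of cxcr4, the receptor for the homing chemokine CXCL12, also ran upward from CoMO through xMLTK-MO to xSox6-MO. These intensities were 437, 554 and 711 for cxcr4.L and 186, 247 and 329 for cxcr4.S, at most 0.83 log2 above CoMO.

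**Figure D1:**
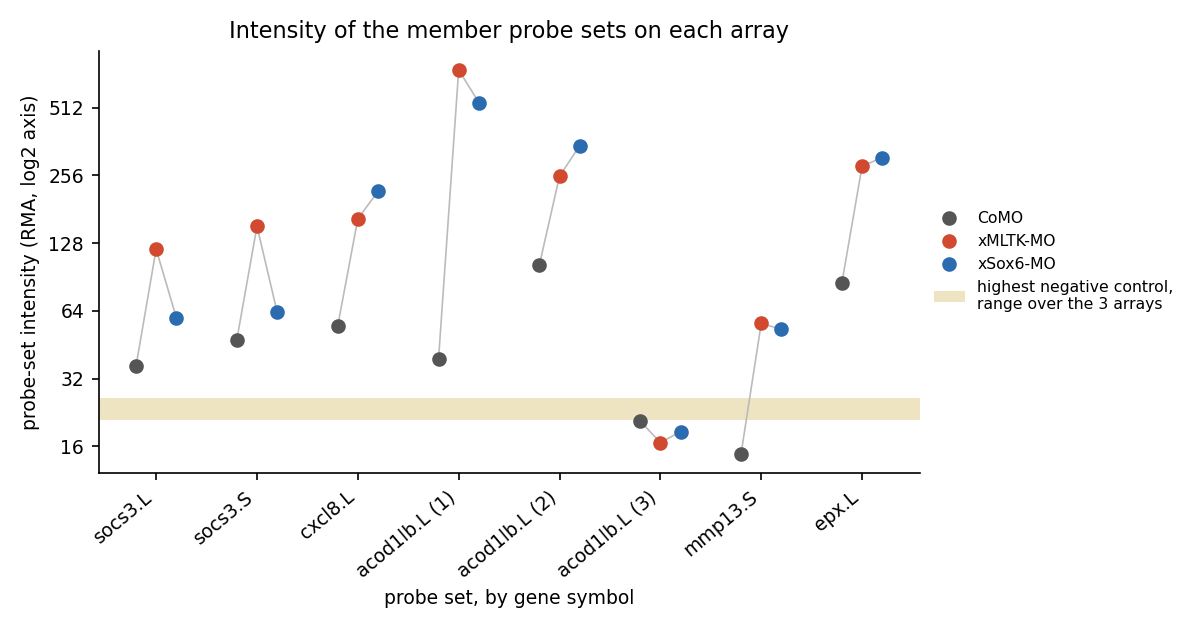
Intensity (log2 axis) of the 8 member probe sets on the CoMO, xMLTK-MO and xSox6-MO arrays, 1 point per array with no error bars because each group is 1 array. The horizontal band spans the brightest negative control of the 3 arrays, from 21.0 to 26.2. The third probe set of acod1lb.L lies below the band on all 3 arrays and mmp13.S below it on CoMO only, while the first probe set of acod1lb.L climbs from 39.0 to 752 and 539.

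The synonyms of acod1lb.L include acod1, irg1 and irg1l, and a role in making itaconate rests on these names and was not tested. This gene held the member probe set with the largest differences, but its 3 probe sets disagreed. The first read 39.0 on CoMO, 752 on xMLTK-MO and 539 on xSox6-MO. The second read 102 on CoMO, 254 on xMLTK-MO and 347 on xSox6-MO. Both were lowest on CoMO, and they placed the knockdown arrays in opposite orders. The third read 20.7, 16.6 and 18.6 and was not above the controls on any array. The first was 19.3-fold higher in xMLTK-MO and 13.8-fold higher in xSox6-MO (log2 4.27 and 3.79), ranking 4 and 2 from the highest among all 15505 probe sets. The second was 2.48-fold and 3.38-fold higher (1.31 and 1.76). Averaging all 3 probe sets gave log2 differences of 1.75 and 1.80, while leaving out the dim one, an alternative chosen after seeing the data, gave 2.79 and 2.77. The size of the difference for the gene thus turns on which probe sets are used. Both probe sets above the controls were higher on both knockdown arrays, and the third, at -0.32 and -0.15 log2, gives no direction by this cutoff. The third was nevertheless above the second brightest control on every array, so setting its lower values aside rests on the brightest control alone.

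Genes of related metabolism did not move one way. Cytosolic aconitase, aco1.L, which interconverts citrate and isocitrate, was 0.53 log2 below CoMO in xMLTK-MO and 0.71 in xSox6-MO. The arginase genes, whose enzymes compete for the substrate of nitric oxide synthesis, were higher in part. The mitochondrial arginase gene arg2.S read 159, 596 and 597, which is 3.74-fold and 3.75-fold higher than CoMO, while the other copy, arg2.L, read 152, 179.6 and 151. The liver-type arginase gene arg1.L lay 0.92 and 0.98 log2 above CoMO, just under 2-fold. Haem oxygenase, a stress response enzyme of macrophages, stood at -0.09 and -0.12 log2 for hmox1.L and at -0.26 and -0.49 for hmox1.S.

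The collagenase gene mmp13.S was detected on both knockdown arrays and not on CoMO. Its intensities were 14.9 on CoMO, where it was not above the controls, 56.3 on xMLTK-MO and 53.0 on xSox6-MO. Against the brightest negative control of CoMO it was at least 2.42-fold higher in xMLTK-MO and at least 2.28-fold higher in xSox6-MO. The knockdown arrays differed from each other by 0.09 log2. RefSeq lists mmp13 as a synonym of mmp3.L and mmp13l.S too, and mmp7 as a synonym of mmp13.S. The assignment of probe sets between these names is therefore uncertain.

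Other secreted metalloproteinases were also higher on both arrays. The gelatinase gene mmp9.1.S read 25.5, 143 and 114, or 5.62-fold and 4.49-fold higher than CoMO. The interstitial collagenase gene mmp1.S (synonyms col4 and mmp18) read 26.1, 94.1 and 62.5, or 3.61-fold and 2.40-fold higher. In both, CoMO was just over its brightest control and xMLTK-MO was the highest array. The neutrophil collagenase gene mmp8.L read 66.1, 128 and 91.5, a log2 difference of 0.95 and 0.47. The matrilysin gene mmp7.L had a probe set at 15.9, 45.6 and 29.1, not above the controls on CoMO, and a brighter one at 117, 108 and 105. These 2 probe sets point opposite ways.

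The increase did not extend to the whole family. Stromelysin mmp3.L was lower on xMLTK-MO, at 363, 214 and 341 (-0.76 and -0.09 log2). The constitutive gelatinase mmp2.S read 432, 377 and 516, and the membrane-bound mmp15.L lay within 0.09 log2 of CoMO on both arrays. The frog collagenase copy mmp13l.S read 26.6, 30.7 and 32.9 (0.21 and 0.31 log2), and mmp13l.L was not above the controls on any array with any of its 3 probe sets. Of the tissue inhibitors that block these enzymes, timp2.L read 254, 247 and 225, and the brighter probe set of timp3.L read 152, 215 and 186. In the RefSeq gene order mmp8.S lies 2 genes from mmp13.S, mmp1.S 5 and mmp13l.S 6, so neighbours in this cluster ranged from mmp1.S, more than 2-fold higher on both arrays, to mmp13l.S, close to CoMO.

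**Figure D2:**
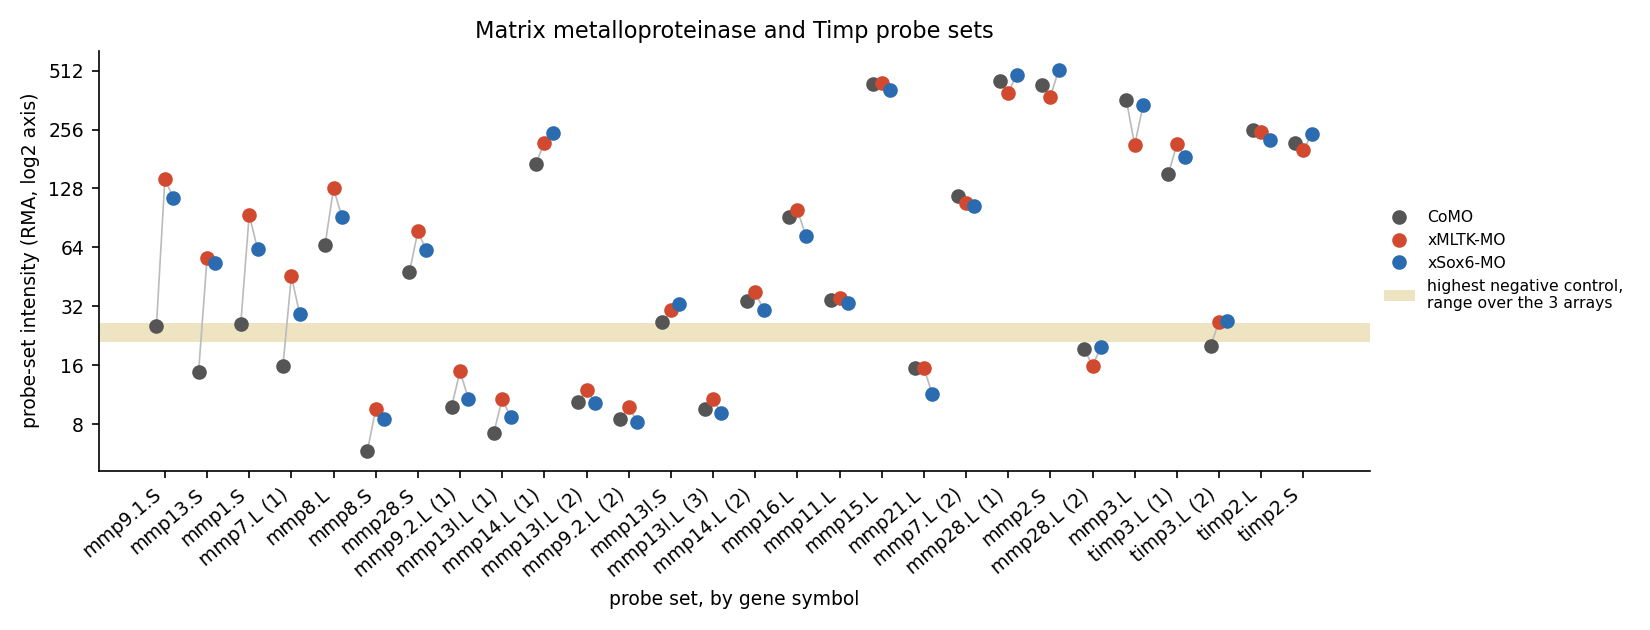
Intensity (log2 axis) of each probe set of the metalloproteinases and Timp inhibitors on the 3 arrays, with numbers in brackets telling apart the probe sets of a gene, a horizontal band for the brightest negative control (21.0 to 26.2 over the arrays) and no error bars (1 array per group). Metalloproteinases and then Timp inhibitors are ordered from left to right by falling difference of xMLTK-MO from CoMO. At the left end mmp9.1.S goes from 25.5 on CoMO to 143 and 114, and mmp13.S starts below the band, while mmp3.L dips on xMLTK-MO only.

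The peroxidase gene epx.L was higher on both knockdown arrays by nearly equal amounts. Its intensities were 85.4 on CoMO, 281 on xMLTK-MO and 307 on xSox6-MO. The log2 differences from CoMO were 1.72 (3.29-fold) and 1.85 (3.60-fold), and the knockdown arrays were 0.13 log2 apart with xSox6-MO higher. RefSeq gives epx.L and mpo.L, the neutrophil myeloperoxidase gene, a common synonym (pmr-1), so which gene a probe set reports is uncertain. That epx.L is a granulocyte peroxidase rests on its symbol and was not tested. The bright probe set of mpo.L read 119, 456 and 433, log2 differences of 1.93 and 1.86, and its dim one was not above the controls on any array. The copy mpo.S was not above the controls on CoMO (19.0) and read 59.9 and 47.1 on the knockdown arrays, at least 2.57-fold and 2.03-fold higher.

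A granule enzyme gene was higher on the same arrays as epx.L and the mpo copies. Proteinase 3, a serine protease of neutrophil granules, was 4.21-fold and 3.69-fold higher for prtn3.L (33.7, 142 and 124) and 2.28-fold and 2.54-fold higher for prtn3.S (83.2, 190 and 211). In each comparison with CoMO, 17 genes of the whole myeloid and granulocyte list, epx left out, were above the controls on either array of the pair. Of these, 13 were higher and 4 lower in xMLTK-MO than in CoMO by any amount, and 10 were higher and 7 lower in xSox6-MO. The matching share over all detected genes was not counted, so nothing is read from these splits. Among the 17 genes, lcp1.S, an actin-bundling protein of leucocytes, stood at -0.39 and -0.35 log2. The transcription factor genes cebpa.L and cebpd.L, which act in myeloid cells and in other tissues, stood at 0.39 and 0.30 and at 0.64 and 0.30. Of 10 myeloid marker genes other than epx, 8 were measured as 9 copies, and their summed intensity was 287 on CoMO, 384 on xMLTK-MO and 358 on xSox6-MO. The 2 mpo copies carried nearly all of that difference, with sums of 66.0, 159.8 and 136, and the other 7 copies summed to 221, 224 and 222. In these sums mpo.L is the log2 average of its bright probe set and its dim one, which read 18.5, 21.9 and 18.4. The bright one alone read 119, 456 and 433, so the sums depend on this averaging and understate the difference on that probe set. Of the 9 copies 4, 5 and 5 were above the controls. The copies csf3r.L, itgb2.L, ptprc.L and tyrobp.S, which encode the granulocyte growth factor receptor, the common leucocyte integrin chain, CD45 and a signalling adaptor of myeloid cells, were not above them on any array. The part of myeloid cell number in the epx.L result was not tested.

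**Figure D3:**
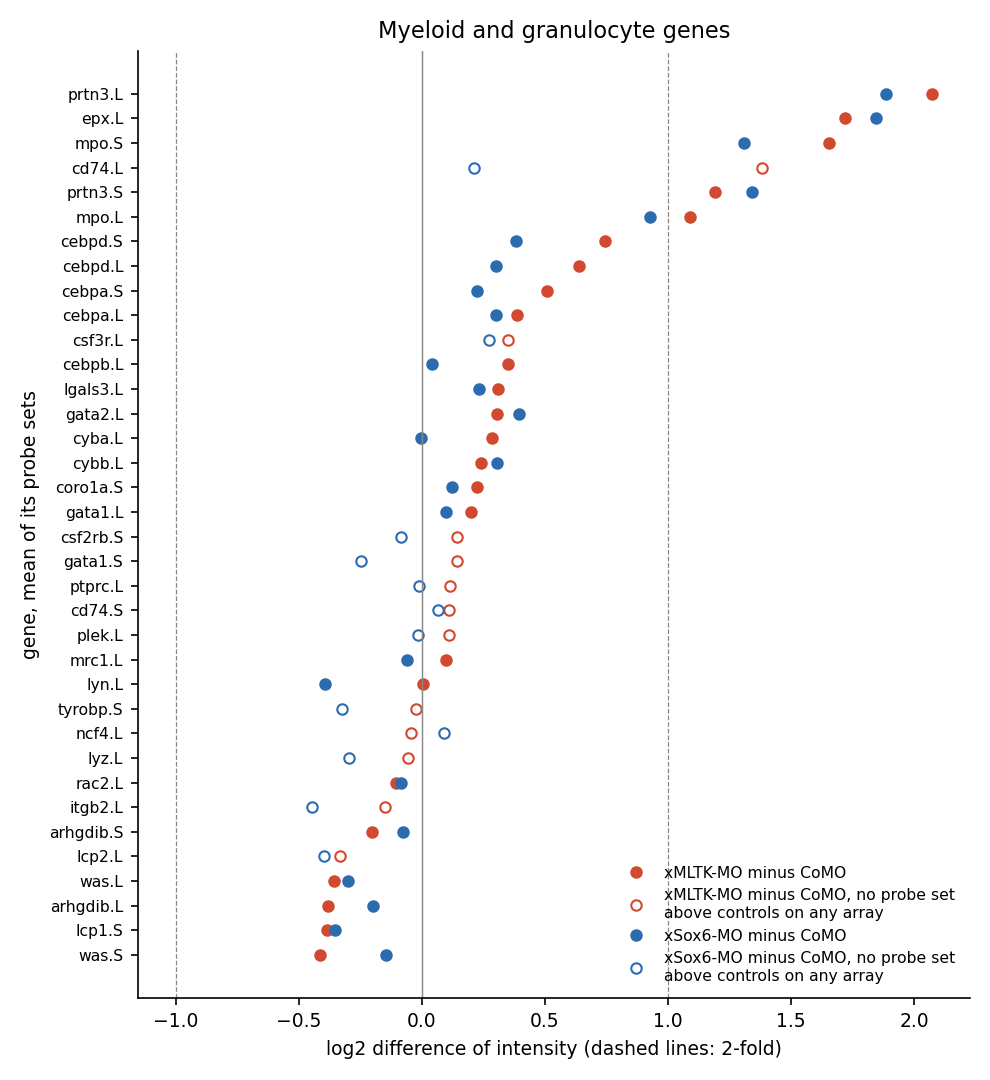
Log2 difference of intensity from CoMO for each measured copy of the myeloid and granulocyte list, probe sets averaged, 1 array per group and no error bars, with open circles for copies that had no probe set above the controls on any array. The peroxidases epx.L, mpo.L and mpo.S and the 2 prtn3 copies are the detected genes at the high end for both knockdown arrays, whereas ptprc.L, itgb2.L, csf3r.L and tyrobp.S are open circles.

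Markers of another organ moved on the same arrays. Pancreatic markers, 10 copies of 7 genes, had a summed intensity of 334 on CoMO, 2934 on xMLTK-MO and 912 on xSox6-MO, with 4, 8 and 7 copies above the controls and with cela1.1.L and cpa1.S above them on no array. Lens markers had sums of 15762, 10346 and 6556, photoreceptor markers of 5648, 4177 and 2637, and cartilage markers of 14000.1, 9943 and 9551. Sums of other lists lay nearer to CoMO. In the same order of arrays they were 10225, 11044 and 10664 for neuron and 1212, 1217 and 1278 for endothelium markers. Liver markers had 14889, 15462.5 and 12844, and skeletal muscle markers 34534, 30994.5 and 29709. Epidermis markers had 16613, 14108 and 14026, and erythrocyte markers 25588, 22028 and 22015. Each knockdown array thus differed from CoMO in the summed markers of some tissues, which heads may carry in unequal amounts. The part of such differences in the values of the 6 genes was not tested.

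Counted at 2-fold, all 3 member genes past the level filter (cxcl8.L, acod1lb.L and epx.L) were higher in xMLTK-MO than in CoMO, beside 93 of 7258 genes, or 1.28%. Without the filter it was 6 of 6 members beside 1.40% of 11303 genes. In xSox6-MO against CoMO the counts were 3 of 3 beside 0.978% and, without the filter, 4 of 6 beside 1.06%, the exceptions being the 2 copies of socs3. No member was at least 2-fold lower in any comparison. Between the knockdown arrays, 0 of 3 members past the filter (0.482% of genes) and 2 of 6 without it (0.557%), socs3.L and socs3.S, were at least 2-fold higher in xMLTK-MO. The level filter uses the mean of the 3 arrays. On CoMO alone cxcl8.L, acod1lb.L and epx.L lay under its level, at log2 5.77, 5.45 and 6.42. They passed through their higher values on the knockdown arrays, so the filter itself favoured the counts of 3 of 3 against CoMO. Since these differences also chose the members, nothing is read from the counts. The call of socs3.L between the knockdown arrays, at 2.02-fold, was lost under 4 other settings, with log2 differences from 0.85 to 0.98.

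**Figure D4:**
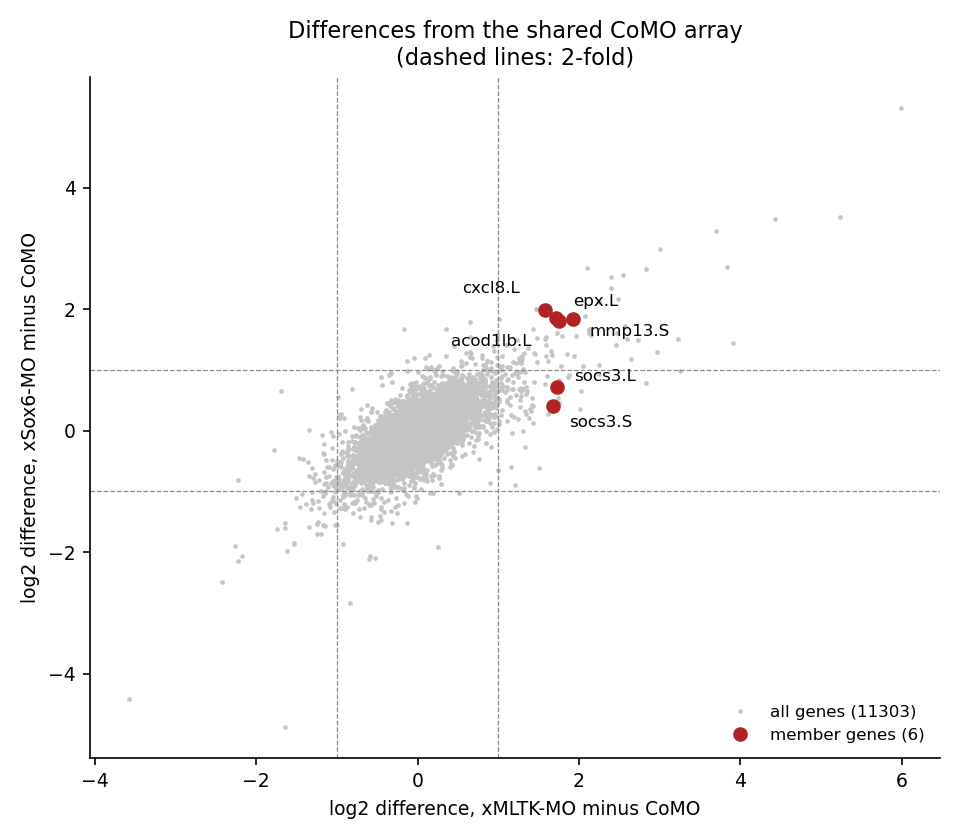
Log2 difference of intensity from CoMO in xMLTK-MO (horizontal) and xSox6-MO (vertical) for all 11303 genes, with the 6 member genes marked and no error bars (1 array per group). Both axes subtract the same CoMO array, so part of the spread along the diagonal is common to them. The copies of socs3 lie below the diagonal, at 1.73 and 0.72 and at 1.67 and 0.41, and cxcl8.L lies above it, at 1.58 and 1.99.

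The wider pathways were described with 8 gene lists, members left out and the .L and .S copies of a gene averaged. Over all 9273 genes so averaged, the shares that passed 2-fold upward and downward were 1.38% and 0.679% for xMLTK-MO against CoMO, 0.971% and 0.917% for xSox6-MO against CoMO, and 0.550% and 0.237% for xMLTK-MO against xSox6-MO. The median of all genes lay within 0.03 log2 of 0 in each comparison. Many list symbols were not measured. Those measured were 24 of 49 for SOCS and JAK-STAT, 11 of 42 for chemokines and 27 of 65 for interleukin 1 to NF-kB. They were 16 of 31 for metalloproteinases, 17 of 28 for itaconate and arginine and 27 of 60 for myeloid genes. For AP-1 it was 30 of 41 and for interferon 15 of 34. Each list median covers the measured genes only. Where list genes above the controls are split by direction, a gene counts if it was above them on either array of the pair. The matching share over all detected genes was not counted, so nothing is read from these splits.

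Of the 24 measured genes of SOCS, JAK-STAT and interleukin 6 family signalling, 1 was at least 2-fold higher in xMLTK-MO and 1 was lower by 2-fold or more in xSox6-MO, and the median differences from CoMO were 0.05 and -0.005. The first was il10rb.S, a receptor chain for interleukin 10 family cytokines, at 27.7, 55.9 and 39.8. The second was the erythropoietin receptor gene epor.L, which read 28.8 on CoMO and was not above the controls on either knockdown array, so in xSox6-MO it was at least 1.37-fold lower. Upstream of socs3, the receptor subunit il6st.S stood at -0.19 and -0.22 log2 from CoMO and the kinase jak1.S at -0.31 and -0.47. The other copy, il6st.L, stood at 0.07 and -0.02 with an averaged intensity not above the controls. The ligand gene lif.L was not above them on any array, and pim1.L stood at 0.64 and 0.70. The list thus went both ways. In xMLTK-MO 8 of 20 detected list genes exceeded CoMO and 12 lay below it, and in xSox6-MO the split was 9 and 11. Of 11 measured chemokine and receptor genes other than cxcl8, 0 passed 2-fold in any of the 3 comparisons, and the medians were 0.11 and 0.06. Only 5 of the 11 were above the controls in each comparison with CoMO. All 5 were higher in xMLTK-MO (median 0.29), and 4 were higher and 1 lower in xSox6-MO (median 0.07).

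Of 27 genes of interleukin 1, TNF, Toll-like receptor and NF-kB signalling, 1 passed 2-fold upward by its measured value on each knockdown array, with medians of 0.10 and 0.08. In xMLTK-MO it was ptgs2.S, the inducible cyclooxygenase that makes prostaglandins, at 103, 225 and 187 (2.18-fold and 1.81-fold). In xSox6-MO it was tnfaip3.S, a brake on NF-kB signalling, which was above the controls on that array only, so that it is shown only to be at least 1.23-fold higher than CoMO. Among the signal transducers, the NF-kB subunit rela.L stood at 0.04 and 0.01 log2. The receptor adaptor stood at 0.27 and 0.24 for myd88.L and at 0.22 and 0.51 for myd88.S, and the NF-kB inhibitor at 0.32 and 0.22 for nfkbia.L and at 0.10 and 0.42 for nfkbia.S. The subunit relb.S was lower, at -0.24 and -0.44. The cytokine gene il1b.S was not above the controls on any array.

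Immediate early genes respond within minutes to stress kinases and growth factors. The AP-1 and immediate early response list also holds genes of stress kinases, which are not immediate early genes. In xMLTK-MO these kinase genes ranged from -0.11 (mapk14) to 0.29 log2 (map2k4). Of all 30 genes in the list, 3 were at least 2-fold higher in xMLTK-MO and 0 in xSox6-MO, with medians of 0.44 and 0.25. They were fos.S at 124, 593 and 237 (4.76-fold and 1.91-fold), junb.L at 138, 509 and 262 (log2 1.88 and 0.92), and ier2.L at 298, 723 and 486 (1.28 and 0.71). With copies averaged, as in the count, junb stood lower, at 1.40 and 0.66, and so did ier2, at 1.05 and 0.60. The 3 genes shared the order of arrays seen for socs3, with CoMO lowest and xMLTK-MO highest. Of them, fos was also at least 2-fold higher in xMLTK-MO than in xSox6-MO. Of 16 metalloproteinase and inhibitor genes, 2 (mmp9.1 and mmp1) were at least 2-fold higher on each knockdown array, with medians of 0.24 and 0.18.

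Of 17 genes of itaconate, arginine and nitric oxide metabolism, 1 (arg2) was at least 2-fold higher in xMLTK-MO and 0 in xSox6-MO, and the medians were -0.18 and -0.13. With copies averaged, arg2 stood at 1.07 and 0.94 log2, on either side of 2-fold. Its copy arg2.S alone stood at 1.90 and 1.91, so the count does not set the knockdown arrays apart for this gene. Of 27 myeloid and granulocyte genes, 2 (mpo and prtn3) were at least 2-fold higher on each knockdown array, with medians of 0.14 and -0.01. Of 15 interferon response genes, 0 passed 2-fold in any comparison, with medians of 0.11 and 0.05. For xMLTK-MO against CoMO, 10 of the 15 were above the controls, 7 higher and 3 lower. For xSox6-MO against CoMO it was 9, 6 higher and 3 lower. No list had more than 1 gene at least 2-fold lower in any comparison.

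**Figure D5:**
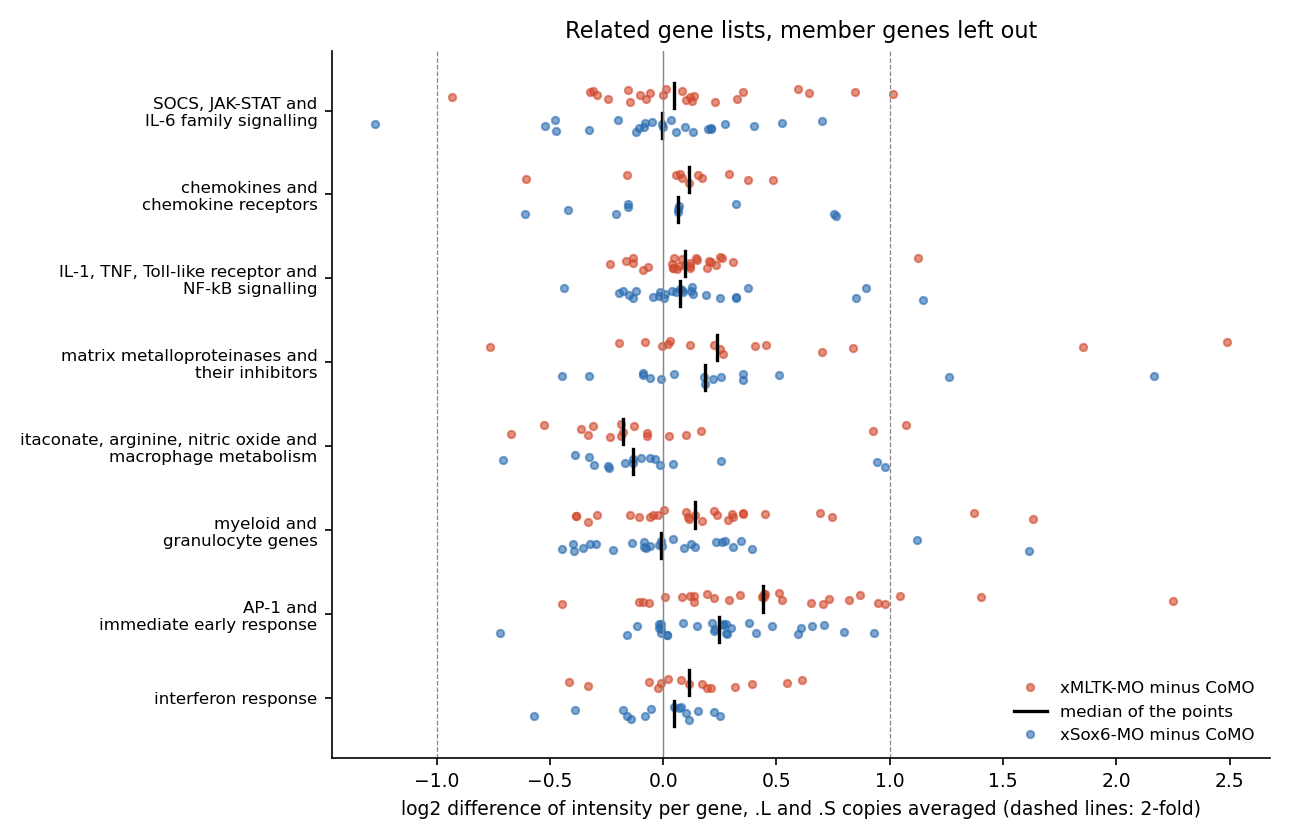
Log2 difference of intensity from CoMO for each gene of 8 pathway lists (.L and .S copies averaged, members left out), with xMLTK-MO and xSox6-MO as separate series, black marks for the median of each series and dashed lines at 2-fold. No error bars are drawn, since each group is 1 array. The AP-1 and immediate early response list has the highest medians, 0.44 and 0.25, and most points of every list lie between the dashed lines.

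The genes with the nearest pattern were those past the level filter at the smallest Euclidean distance from a member in the 2 log2 differences from CoMO, out of 7255. For socs3.L they were slurp1l.S (distance 0.18), slc5a2.L (0.21) and junb.L (0.26), and for socs3.S they were lgals4.1.L (0.14), slurp1l.S (0.15) and krt18.1.S (0.24). For epx.L they were prss57.L (0.05), arg2.S (0.20) and g6pc1.1.L (0.30). Here prss57 encodes another serine protease of neutrophil granules in mammals. For mmp13.S they were arg2.S (0.07), prss57.L (0.25) and adh4.L (0.29), and for acod1lb.L prss57.L (0.10), arg2.S (0.19) and xa-1.L (0.24). For cxcl8.L they were g6pc1.1.L (0.12), prss57.L (0.16) and arg2.S (0.33). For mmp13.S and acod1lb.L these neighbours depend on values not above the controls. With mmp13.S raised to the brightest control of each array, arg2.S ranked 247 and prss57.L 138 in nearness, and the nearest gene was gtf3a.L (0.04). Without the dim probe set of acod1lb.L, arg2.S ranked 8 and prss57.L 13, and the nearest gene was sds.L (0.12). With its brightest probe set alone they ranked 14 and 18, and the nearest gene was astl3a.1.L (0.76). These alternatives were chosen after seeing the data. Both arg2.S and prss57.L stood among the nearest 3 genes of cxcl8.L and epx.L, whose values were above the controls on every array. The likeness rests on 2 differences over 3 arrays. These differences also chose the members, so nothing is read from the neighbours that members share.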

How the data were processed

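Biotin-labelled cRNA from 1 head RNA sample per group was hybridised to Affymetrix Xenopus laevis Genome 2.0 arrays. The authors deposited linear probe-set intensities, made with RMA per the submitters' processing notes, and the series' design text names GeneSpring GX 11.0.2 together with GeneChip operating Software 1.4. RMA quantile-normalises arrays, so a change common to all transcripts would not be seen.

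Here log2 was taken (Python 3.11.15, pandas 2.3.3, numpy 2.4.6). Of 32635 probe sets, 15505 had 1 platform symbol, 279 several and 16851 none. Symbols were updated through gene identifiers in a RefSeq table (Xenopus_laevis_v10.1), used also for synonyms and gene order. Probe sets of a symbol were averaged, and 7258 of 11303 genes passed a mean log2 intensity of 6.51 (intensity 91.4). Groups came from the treatment label. Differences are between pairs of arrays with no test. A value not above the brightest negative control gives a bound. The members, lists and tissue markers were chosen with earlier results of these data known. Named genes are all member probe sets, list genes at least 2-fold different in a pair and above the controls on 1 of its arrays, copies, receptors and inhibitors of members, and the 3 nearest genes. Other list genes named were chosen after their values were seen. The alternatives were quantile, hybridisation-control and poly-A-control scaling, an added intensity of 16, a floor at the controls, the brightest probe set, no level filter and a 3-fold threshold. The calculations were checked on simulated data.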

Additional observations from a re-analysis of the deposited data

Results flagged for a closer look

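The gene tnfaip3.S, whose protein restrains NF-kB signalling, stood out because its measured differences from CoMO had opposite signs on the 2 knockdown arrays. Its intensity was 12.9 on CoMO, 11.8 on xMLTK-MO and 28.6 on xSox6-MO, log2 differences of -0.13 and 1.15 from CoMO, and -1.28 between xMLTK-MO and xSox6-MO. It was above the negative controls on the xSox6-MO array only, where it was at least 1.23-fold higher than CoMO and at least 1.09-fold higher than xMLTK-MO. Its CoMO and xMLTK-MO values were both not above the controls, so they have no order, and the differences that use them are not exact sizes. With 1 array per group the difference was not tested.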

How the results depend on the processing

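Of 144 recalculated member differences 131 stayed within 1.5-fold and on the same side of 2-fold, and none changed sign where the main difference reached 2-fold. For mmp13.S the differences from CoMO were 1.23 and 1.16 log2 with 16 added to intensities and 1.27 and 1.19 with values raised to the brightest control. With a floor at the second brightest control, an alternative not planned beforehand, they stayed at 1.92 and 1.84. For acod1lb.L they were 4.27 and 3.79 with its brightest probe set and 2.79 and 2.77 without the dim one. For socs3.L, xSox6-MO minus CoMO was 1.06 with poly-A scaling, and xMLTK-MO minus xSox6-MO was 0.98 with quantile, 0.96 with hybridisation-control and 0.94 with poly-A scaling and 0.85 with 16 added. Members at least 2-fold higher in xMLTK-MO than in xSox6-MO then numbered 1 in each of these 4 settings, and 0 at 3-fold. Hybridisation-control scaling added 0.10 (xMLTK-MO) and 0.15 (xSox6-MO) log2 to all differences from CoMO, and poly-A scaling 0.27 and 0.35. Genes higher and lower in xMLTK-MO than in CoMO numbered 200 and 20 with poly-A scaling, 158 and 87 without the level filter and 34 and 7 at 3-fold. In xSox6-MO, genes higher numbered 113 with hybridisation-control scaling, 245 with poly-A scaling, 120 without the filter and 18 at 3-fold, and genes lower numbered 25 with poly-A scaling and 13 at 3-fold. Between the knockdown arrays, genes higher in xMLTK-MO numbered 63 without the filter and 11 at 3-fold, and genes lower 28 and 0. Of 192 recalculated list medians, 25 changed sign, none of them with a main size of 0.2 log2 or more. The causes of these shifts were not tested beyond what each setting does by construction. No paired analysis was possible because each group has 1 array. The number of arrays limits every value, and for socs3, mmp13.S and the dim probe set of acod1lb.L so does a signal near the controls. The same holds on CoMO for the first probe set of acod1lb.L, which read 39.0 there. With 16 added, its differences from CoMO were 3.80 log2 in xMLTK-MO (14.0-fold) and 3.33 in xSox6-MO (10.1-fold).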

Other observations

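Probe sets of a gene seldom differed as much as those of acod1lb.L. Among the 2704 genes with several probe sets, the log2 difference between xMLTK-MO and CoMO varied across the probe sets of a gene by a median of 0.22, and by more than 1 in 57 genes. For acod1lb.L the range was 4.59, the second widest, and for xSox6-MO minus CoMO it was 3.94, the widest. Ranges of 1.69 for mpo.L, 1.64 for mmp7.L and 1.55 for socs3l.S in xMLTK-MO minus CoMO ranked 12, 13 and 16. In mpo.L and socs3l.S the range lies between a bright probe set and one not above the negative controls on any array. In acod1lb.L the 2 probe sets above the controls also differed widely, at 4.27 and 1.31 in xMLTK-MO and 3.79 and 1.76 in xSox6-MO. In mmp7.L the brighter probe set is the one that stayed near CoMO.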
